A study of Mus musculus with 6 samples.

Results

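Mitochondrial ribosomal proteins are encoded in the nucleus, made on cytosolic ribosomes and imported into mitochondria. There they assemble with ribosomal RNA from the mitochondrial genome into a large and a small subunit, the mitoribosome, which translates the few mRNAs that mitochondria keep, all of them for subunits of the respiratory chain and ATP synthase. Fat cells carry more mitochondria as they differentiate, and making the mitoribosome is part of that growth. The members described here are the protein-coding genes of GENCODE mouse release M21 (GRCm38) whose symbol starts with Mrpl or Mrps and which are present in all 6 files: 78 genes of 21769. They lie on 17 chromosomes. By textbook subunit, 51 belong to the large subunit and 26 to the small one. Mrps36 is set apart because its product is also known as a component of the oxoglutarate dehydrogenase complex, an enzyme of the tricarboxylic acid cycle. Mrps30 and Mrps18a are counted with the large subunit, where structures of the mammalian mitoribosome place them in spite of their names.

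The 6 mRNA libraries came from 3T3-L1, a line of mouse fibroblasts widely differentiated into adipocytes in culture: 3 libraries of cells exposed to chronic intermittent hypoxia (CIH, repeated spells of low oxygen) and 3 libraries of control cells. Cells of both groups are labelled WT and were induced with insulin, then held in medium with 0.1 µM insulin until day 8. Oxygen levels and cycle times are not stated in the labels, and 3T3-L1 is 1 cell line, so no line-to-line spread is covered. Because the labels name no separate cultures, p-values reflect only library-to-library spread, possibly a technical one. Values are FPKM, that is fragment counts divided by transcript length and library size, so that levels of different genes are compared per length.

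Replicates 1 and 2 of both groups came as tables with 1 row per gene, and replicate 3 of both groups as tables with several rows per gene ID, which were summed. Levels are not comparable between these kinds of table, so CIH 1 and 2 were compared with control 1 and 2, and CIH 3 with control 3. The gene tables correspond to between 25700000 and 28000000 fragments a library, and the depth of the replicate 3 tables is unknown. The 13 mitochondrial-encoded mRNAs took 22.4% of the total FPKM in CIH 3 and 43.7% in control 3, but 13.7% and 14.5% in CIH 1 and 2 and 11.3% and 9.28% in control 1 and 2. Of 12 adipocyte markers, Lep was at most 0.217 FPKM in any library and Slc2a4 was 0.497 FPKM in CIH 3. The lowest value of the other markers was 4.07 FPKM, for Cfd in CIH 3. The summed level of 12 adipocyte markers was 7383 and 6538 FPKM in CIH 1 and 2 against 8154 and 8710 in control 1 and 2, and 677 in CIH 3 against 30387 in control 3. Of the 5 preadipocyte markers, the sum was 60.9 and 56.1 FPKM in CIH 1 and 2 against 70.9 and 68.6 in control 1 and 2, and 546 in CIH 3 against 50.3 in control 3. Of 5 macrophage markers, Adgre1 was listed at 0 in all 6 libraries, and Ptprc and Csf1r were at most 0.481 FPKM. Cd68 ranged from 0.978 to 4.56 FPKM and Cd14 from 1.40 to 8.39 FPKM. The sum of 4 endothelial markers was at most 0.72 FPKM in any library.

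The comparison asked whether the mRNAs of the mitoribosome differ between CIH and control cells. In replicates 1 and 2 the members moved upward as a list: 35 of 78 rose, 0 fell and 43 did not pass the test (limma, Benjamini-Hochberg adjusted p under 0.05 over 10976 genes). At an unadjusted p under 0.05 by limma, 49 members were higher and 0 lower. At that unadjusted threshold, 5587 of the 10976 genes tested passed in either direction. At the adjusted threshold, 18.2% of all genes tested rose and 20.9% fell (1995 and 2297 genes, or 1417 and 3039 after scaling to the same total). The excess of upward calls was not seen without CIH 1, which leaves 1 CIH library. There the share of members called higher was near that of all genes tested. The median log2 change was 0.32 for the members and −0.01 for all genes tested, and without CIH 1 it was 0.26 for the members and −0.01 for all genes tested. Adipocyte markers moved as well in replicates 1 and 2, with 6 of 11 tested called lower and 0 higher. The lower ones were Cfd (11.1-fold), Retn (8.00-fold), Slc2a4 (3.68-fold), Pparg (1.88-fold), Lipe (1.34-fold) and Cebpa (1.28-fold), while 5, Adipoq, Plin1, Fabp4, Cidec and Lpl, did not pass. All 4 tested preadipocyte markers were called, Thy1 (2.49-fold) and Dlk1 (1.60-fold) higher in CIH 1 and 2 and Pdgfra and Ly6a lower. The part of these markers in the members' result was not tested. In RNA from whole cultures, fewer cells of a type and less RNA per cell cannot be told apart. Changes were small: 11 of the 35 were at least 1.5-fold, and the largest was 2.15-fold. In the replicate 3 pair the direction was the opposite, with 75 of 78 members lower in CIH 3 than in control 3, where 38% of all genes tested were lower. There 28 members were at least 2-fold lower and 0 at least 2-fold higher, against 11.8% and 21.8% of all genes tested. The member median was −0.88 in that pair, and the median of all genes tested was 0.26. With 1 library per group that pair has no replicate check. The difference between the kinds of table was not tested.

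Both CIH libraries lay above both control libraries for 62 members and below them for 1, Mrps35 (named after its values were seen), where 35.1% and 38.9% of all genes tested did so. The median member level was 28.2 and 24.6 FPKM in CIH 1 and 2 against 21.2 and 21.5 FPKM in control 1 and 2, and 22.5 FPKM in CIH 3 against 41.0 FPKM in control 3. Summed over the 78 members the level was 2895 and 2548 FPKM in CIH 1 and 2, against 2004 and 2171 FPKM in control 1 and 2. That sum was 2330 FPKM in CIH 3 and 4149 FPKM in control 3. The members also differed together within a group, since CIH 1 exceeded CIH 2 for 75 of 78 members, by a median of 0.16 on the log2 scale, against 0.01 over all genes tested. Control 2 exceeded control 1 for 46 members, by a median of 0.05. Leaving out another library, the count called higher was 26 without CIH 2 (33.3%, against 10.2% of all genes tested), 23 without control 1 (29.5%, against 12.1%) and 34 without control 2 (43.6%, against 15.8%). The count called lower was 0 in all 4 of these fits, that without CIH 1 included. Members listed above 0 held between 377 and 6743 fragments in a gene table.

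**Figure D1:**
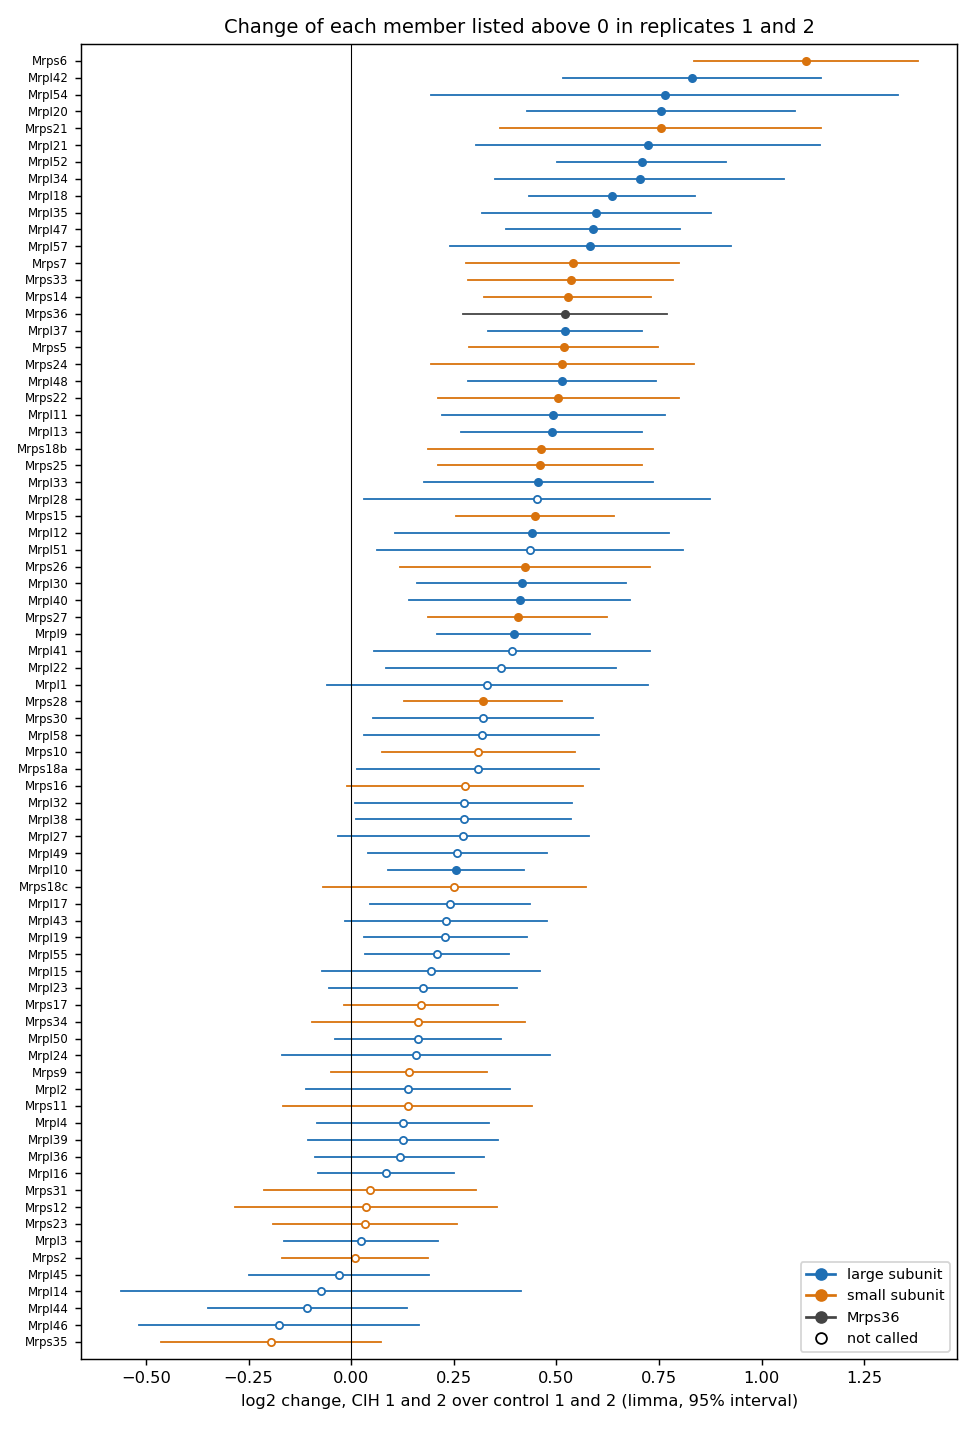
Log2 change of CIH 1 and 2 over control 1 and 2 (x axis, on the log2(FPKM + 1) scale) for the 77 members listed above 0 in the gene tables, ranked from the largest at the top, with the 95% interval of limma as a line. Filled points are the 35 members that passed the test, all of them to the right of 0; open points did not pass, and colours give the subunit.

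Mrps6, a small-subunit protein with a bacterial counterpart (chromosome 16, 92058270 to 92112227, GRCm38), showed the largest change. Its level was 88.2 and 73.4 FPKM in CIH 1 and 2 against 37.7 and 35.9 FPKM in control 1 and 2, and 265 FPKM in CIH 3 against 174 FPKM in control 3. CIH was the higher group in both kinds of table, with a log2 change of 1.11 (SE 0.11, adjusted p = 0.00287, limma) in replicates 1 and 2 and of 0.61 between CIH 3 and control 3. Mrps6 and Mrps25 were the members that rose in replicates 1 and 2 and were also higher in CIH 3. For Mrps25 the call was lost in 5 of the 12 alternatives, and genes on the other strand cover 69.8% of its exon bases. Slc5a3, a sodium-coupled inositol transporter whose transcripts share 5′ exon bases with Mrps6 on the same strand, was looked at after these values were seen. It was 28.8 and 33.2 FPKM in CIH 1 and 2 against 14.8 and 13.8 FPKM in control 1 and 2, and 155 FPKM in CIH 3 against 52.7 FPKM in control 3 (log2 change 1.06 in replicates 1 and 2, limma adjusted p = 0.00248). Other genes on the same strand cover 19.9% of the exon bases of Mrps6, and the labels do not say how fragments there were assigned.

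Most of the next largest rises were in large-subunit genes, which make up 51 of the 78 members. Mrpl42, a protein of the large subunit without a bacterial counterpart (chromosome 10), was 28.0 and 23.1 FPKM in CIH 1 and 2 against 14.9 and 12.9 FPKM in control 1 and 2, a 1.78-fold rise (adjusted p = 0.00798, limma). It was 45.3 FPKM in CIH 3 and 85.3 FPKM in control 3, so the groups stood in the reverse order there. Mrpl54, also specific to mitochondria, was 60.1 and 49.5 FPKM in CIH 1 and 2 against 25.5 and 39.4 FPKM in control 1 and 2 (1.70-fold, limma adjusted p = 0.0479). Its call was lost in 7 of the 12 alternatives: with a pseudocount of 0.1, with no filter, after scaling to the same total, under the replicate block (adjusted p = 0.0624, limma) and without control 1, CIH 1 or CIH 2. Mrpl20, which in bacteria acts early in large-subunit assembly, was 83.6 and 69.2 FPKM in CIH 1 and 2 against 41.3 and 48.3 FPKM in control 1 and 2 (1.69-fold, limma adjusted p = 0.0113). Mrpl20 was 24.7 FPKM in CIH 3 and 123 FPKM in control 3, 4.83-fold lower in CIH 3.

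Mrps21, a small-subunit protein with a bacterial counterpart (chromosome 3), followed the same split. Its level was 69.6 and 59.8 FPKM in CIH 1 and 2 against 33.1 and 43.3 FPKM in control 1 and 2 (1.69-fold, limma adjusted p = 0.0184), and 67.4 FPKM in CIH 3 against 238 FPKM in control 3. Mrpl21 rose 1.65-fold from its control level in replicates 1 and 2 (adjusted p = 0.0250, limma) and was 37.6 FPKM in CIH 3 and 57.3 FPKM in control 3. Mrpl52, placed in the central protuberance of the large subunit, was 45.1 and 41.8 FPKM in CIH 1 and 2 against 25.1 and 27.3 FPKM in control 1 and 2. Its groups did not overlap, and its 1.63-fold change passed with adjusted p = 0.00425 (limma). It was 83.4 FPKM in CIH 3 and 102 FPKM in control 3, a log2 change of −0.29. Mrpl18, whose bacterial counterpart binds the 5S ribosomal RNA, was 62.5 and 56.5 FPKM in CIH 1 and 2 against 38.7 and 37.1 FPKM in control 1 and 2 (1.55-fold, limma adjusted p = 0.00531). It was 19.5 FPKM in CIH 3 and 72.3 FPKM in control 3. Mrpl35 completed the 10 largest rises at 1.51-fold (adjusted p = 0.0140, limma). Mrps6, Mrpl52, Mrpl18 and Mrpl37 were the 4 members called under every one of the 12 alternatives.

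**Figure D2:**
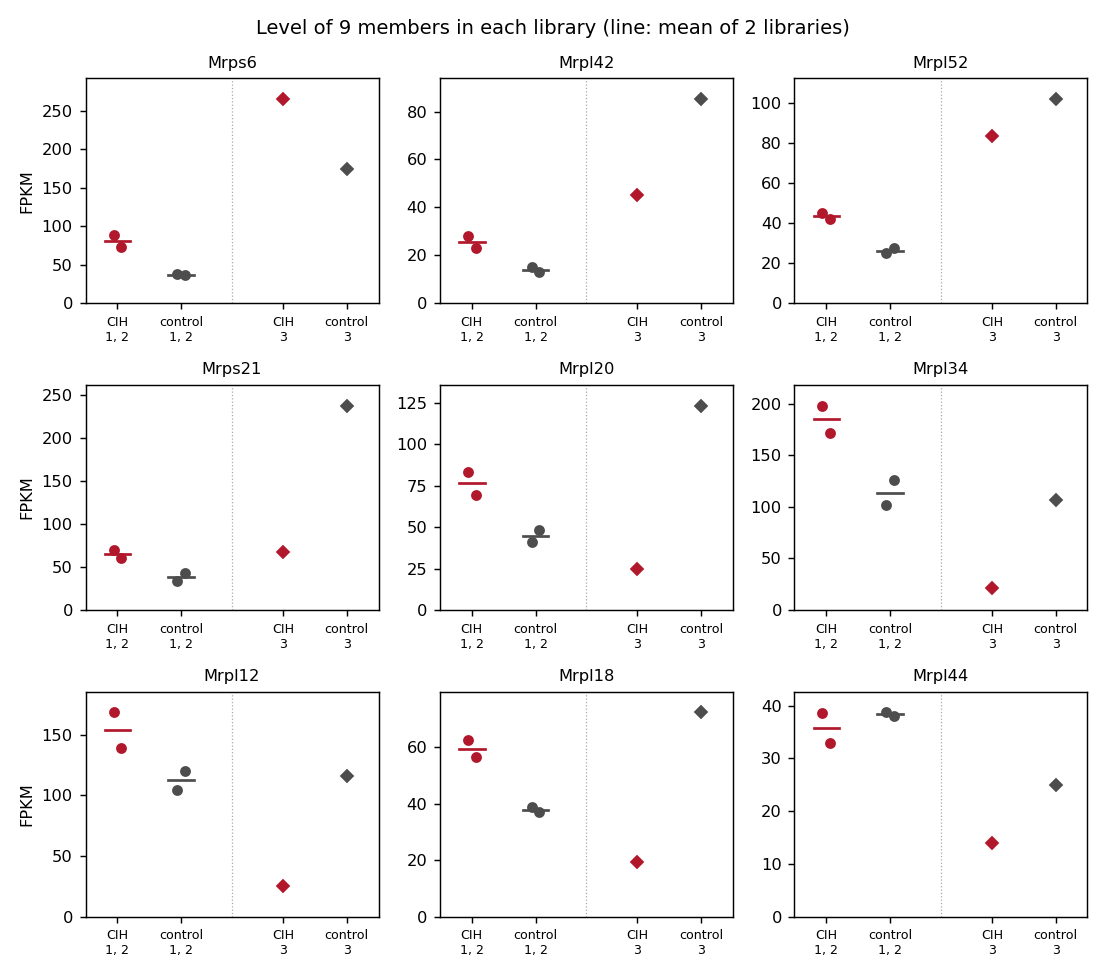
FPKM of 9 members in each library, with CIH left of control, replicates 1 and 2 as circles with their mean as a line, and replicate 3 as diamonds to the right of the dotted line, where levels are on another table's scale. In 8 panels the CIH circles lie above the control circles, Mrpl44 being the exception; among the diamonds CIH lies above control for Mrps6 alone.

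The most abundant members per length in the gene tables were Mrpl34, Mrpl12, Mrpl2, Mrpl10 and Mrpl38. Mrpl34 and Mrpl12 stood far above the others. Mrpl34, a short protein with a bacterial counterpart (chromosome 8), was 198 and 172 FPKM in CIH 1 and 2 against 101 and 126 FPKM in control 1 and 2 (1.63-fold, limma adjusted p = 0.0169). It showed the lowest change of all members in the replicate 3 pair, 20.9 FPKM in CIH 3 and 107 FPKM in control 3, 4.92-fold lower. Mrpl12, the stalk protein that recruits translation factors to the ribosome and in human cells also binds the mitochondrial RNA polymerase (chromosome 11), was 168 and 139 FPKM in CIH 1 and 2 against 105 and 120 FPKM in control 1 and 2. Its 1.36-fold change passed narrowly (limma adjusted p = 0.0496), and the call was lost in 7 of the 12 alternatives: with a pseudocount of 0.1, with no filter, after scaling to the same total, under the replicate block (adjusted p = 0.0845, limma) and without control 1, control 2 or CIH 1. Mrpl12 was 25.0 FPKM in CIH 3 and 116 FPKM in control 3, a log2 change of −2.17. For both genes CIH was the higher group in replicates 1 and 2 and the lower one in the replicate 3 pair. Mrpl2, near the catalytic centre, averaged 77.8 ± 5.04 FPKM in CIH 1 and 2 and 70.6 ± 6.51 FPKM in control 1 and 2 (SD, n = 2 each) and did not pass the test (limma adjusted p = 0.298, 95% interval −0.11 to 0.39 in log2). Mrpl38, of the central protuberance, averaged 76.0 ± 2.97 FPKM in CIH 1 and 2 and 62.9 ± 7.34 FPKM in control 1 and 2 (SD, n = 2 each; limma adjusted p = 0.0875).

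All 3 proteins of the stalk and its base rose in replicates 1 and 2. Besides Mrpl12, these are Mrpl10, which anchors it, and Mrpl11 at the base. Mrpl10 was 76.3 and 75.8 FPKM in CIH 1 and 2 against 63.0 and 64.1 FPKM in control 1 and 2 (1.19-fold, limma adjusted p = 0.0337). That call was lost when libraries were scaled to the same total, with or without mitochondrial-encoded genes, under the replicate block (adjusted p = 0.0857, limma) and without any 1 of the 4 libraries. Mrpl11 was 19.1 and 16.8 FPKM in CIH 1 and 2 against 11.6 and 13.4 FPKM in control 1 and 2 (1.41-fold, limma adjusted p = 0.0217), and 5.80 FPKM in CIH 3 against 13.9 FPKM in control 3. Of 9 genes of the central protuberance, 4 rose and 5 did not pass. Of 6 genes around the peptide exit tunnel, where the growing chain leaves the ribosome, Mrpl47 rose and the other 5 did not pass, with a median of 0.21. Over all members 44.9% rose, with a median of 0.32, and over all genes tested 18.2% rose. Whether these structures differ was not tested. Mrpl23, one of the exit tunnel genes, was 5.96 and 5.46 FPKM in CIH 1 and 2 against 4.74 and 5.15 FPKM in control 1 and 2 (adjusted p = 0.173, limma). It was the remaining member higher in CIH 3, at 34.0 FPKM against 30.8 FPKM in control 3.

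Mrps12, the counterpart of the bacterial protein at the decoding centre, was 29.0 and 27.1 FPKM in CIH 1 and 2 against 24.3 and 30.7 FPKM in control 1 and 2. The groups overlapped (log2 change 0.04, 95% interval −0.28 to 0.36, limma adjusted p = 0.842), while CIH 3 held 10.4 FPKM and control 3 held 29.5 FPKM. The S18 paralogs occupy different places, Mrps18a in the large subunit and Mrps18b and Mrps18c in the small one. Mrps18b rose 1.38-fold in replicates 1 and 2 (adjusted p = 0.0265, limma), and Mrps18a (limma adjusted p = 0.0883) and Mrps18c (limma adjusted p = 0.165) did not pass. All 3 paralogs were lower in CIH 3, with log2 changes of −0.83 for Mrps18a, −0.67 for Mrps18b and −0.64 for Mrps18c. Mrps30 averaged 12.4 ± 0.719 FPKM in CIH 1 and 2 and 9.72 ± 1.16 FPKM in control 1 and 2 (SD, n = 2 each; limma adjusted p = 0.0638). Mrpl58, a peptidyl-tRNA hydrolase that frees stalled mitoribosomes, was 11.8 and 9.83 FPKM in CIH 1 and 2 against 8.05 and 8.87 FPKM in control 1 and 2 (adjusted p = 0.0768, limma), and 21.8 FPKM in CIH 3 against 23.2 FPKM in control 3. Mrps36 rose 1.44-fold (limma adjusted p = 0.0146) and had a log2 change of −0.17 in the replicate 3 pair.

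Both subunits took part in the rise. Of the 51 large-subunit genes 20 rose, with a median log2 change of 0.32, and of the 26 small-subunit genes 14 rose, with a median of 0.36. Over all genes tested 18.2% rose. Large-subunit proteins with a bacterial counterpart rose for 13 of 30 (median 0.30) and mitochondria-specific ones for 7 of 20 (median 0.32). Small-subunit proteins rose for 7 of 15 with a bacterial counterpart (median 0.31) and for 6 of 10 without one (median 0.36). In the replicate 3 pair the 4 medians lay between −0.91 and −0.85. Whether the subunits differ was not tested.

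**Figure D3:**
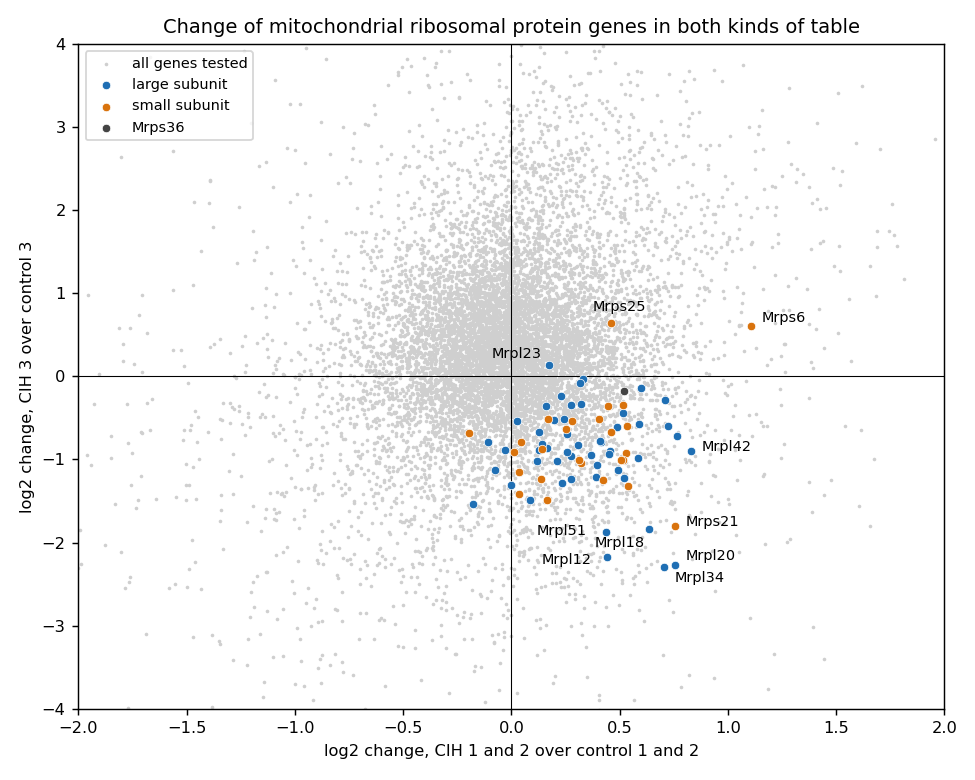
Log2 change of CIH over control, with replicates 1 and 2 on the x axis and the replicate 3 pair on the y axis, for all genes tested (grey, those within the axes) and for the members, coloured by subunit. The members lie mostly in the lower right, higher in CIH 1 and 2 and lower in CIH 3. Mrps6 and Mrps25 lie in the upper right, as does Mrpl23, which alone among them did not pass the test.

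Read across both comparisons, 33 of the 35 members that rose in replicates 1 and 2 were lower in CIH 3 than in control 3, 13 of them at least 2-fold, and 15 of the 43 that did not pass were at least 2-fold lower. The 5 lowest changes of the replicate 3 pair were those of Mrpl34, Mrpl20, Mrpl12, Mrpl51 and Mrpl18, between −2.30 and −1.84. Mrpl51 was 45.2 and 36.6 FPKM in CIH 1 and 2 against 26.9 and 33.0 FPKM in control 1 and 2 (limma adjusted p = 0.0677). It was 10.1 FPKM in CIH 3 and 39.7 FPKM in control 3. At the other end, Mrps25 was 21.2 FPKM in CIH 3 and 13.2 FPKM in control 3, and 6.72 and 7.09 FPKM in CIH 1 and 2 against 4.40 and 5.11 FPKM in control 1 and 2 (1.38-fold, limma adjusted p = 0.0206). Mrpl1 was 17.0 FPKM in CIH 3 and 17.3 FPKM in control 3. In this pair all 11 tested adipocyte markers were at least 2-fold lower in CIH 3 and all 4 tested preadipocyte markers at least 2-fold higher. Their part in the result was not tested. Scaling to the same total moved the median of all genes tested to 0.84 in that pair and the member median to −0.27, with 6 members at least 2-fold lower and 2 at least 2-fold higher. Relative to all genes tested the member median was −1.14 as deposited and −1.11 after that scaling.

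Mrpl53 was listed at 0 in all 4 gene tables and at 25.5 FPKM in CIH 3 against 64.7 FPKM in control 3, so it passed the filter only through replicate 3 and its 0.00 in replicates 1 and 2 carries no information. Another gene on the same strand shares 88.0% of its exon bases. In all, 8 members share exon bases with another gene on the same strand and 33 on either strand. How fragments there were assigned was not tested. Levels of some members differed widely between the tables, as for Mrpl33, at 4.59 and 3.74 FPKM in CIH 1 and 2 and 2.86 and 2.65 FPKM in control 1 and 2, but 84.8 FPKM in CIH 3 and 159 FPKM in control 3.

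For 18 members (23.1%) another protein-coding gene starts within 1000 bases upstream on the opposite strand, compared with 11.4% of the 10904 protein-coding genes tested. The median distance between the starts was 82 bases. Of the 17 such neighbours that were tested, 6 rose in replicates 1 and 2 and 11 did not pass, where 18.2% of all genes tested rose. In the replicate 3 pair all 18 members were lower in CIH 3, as were 75 of all 78 members. Of the 17 neighbours, 10 were higher and 7 lower there, with a median log2 change of 0.20. Over all genes tested, 6796 of 10976 were higher in CIH 3, with a median of 0.26. Mrpl51 and Ncapd2, which encodes a condensin subunit, start 100 bases apart on chromosome 6. Ncapd2 rose in replicates 1 and 2, with a log2 change of 0.51 (limma adjusted p = 0.00923) beside 0.44 for Mrpl51, and the changes were 1.14 for Ncapd2 and −1.87 for Mrpl51 in the replicate 3 pair. Mrpl57 and Ska3, a kinetochore gene, start 49 bases apart. They both rose in replicates 1 and 2, with log2 changes of 0.58 and 0.63, and showed −0.99 for Mrpl57 and 0.92 for Ska3 in the replicate 3 pair. For Mrpl54 and Apba3, 26 bases apart, the member alone rose (0.76 and −0.14), and both were lower in CIH 3 (−0.72 and −0.73). Mrps12 and Sars2, the mitochondrial seryl-tRNA synthetase, showed 0.04 and 0.41 in replicates 1 and 2, and neither passed.

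**Figure D4:**
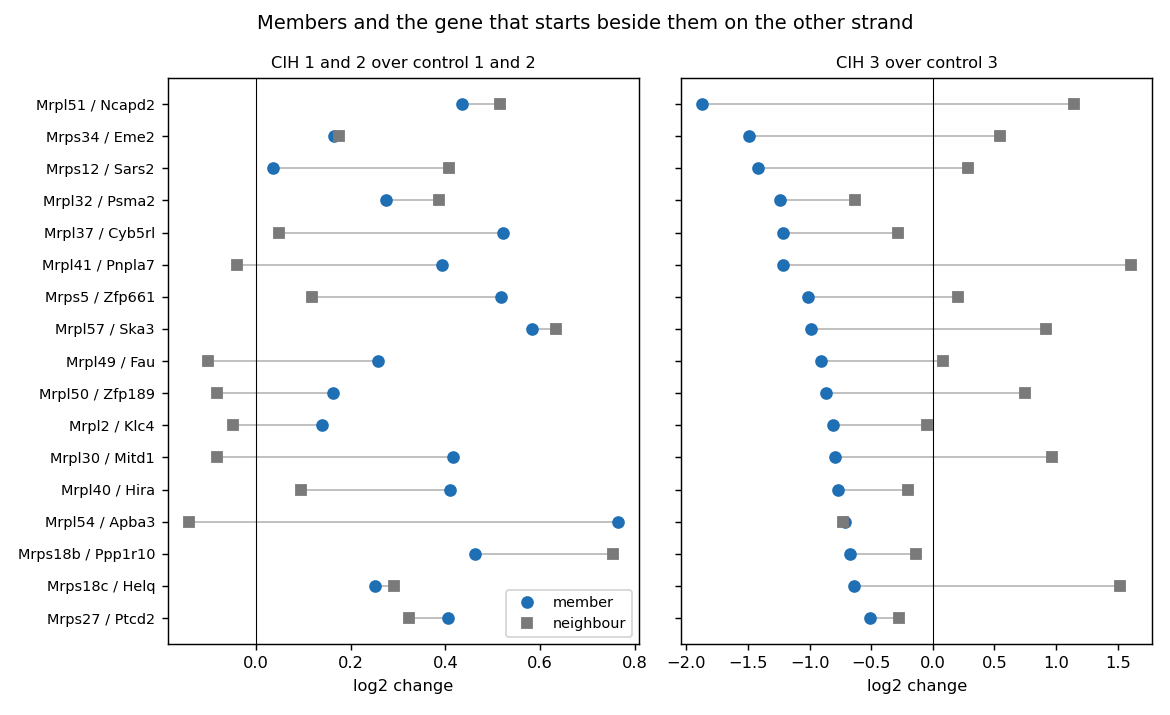
Log2 change of CIH over control for 17 members (circles) and the tested gene that starts within 1000 bases of each on the other strand (squares), with replicates 1 and 2 on the left and the replicate 3 pair on the right, ordered by the member's change in that pair. Circles on the right all lie below 0, while the squares spread from −0.73 to 1.61.

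Promoter sequence was available from RefSeq (GRCm38.p6) for 69 of the 78 members, as windows from 250 bases before to 50 bases after the start. Each window was searched on both strands for motifs of factors known from mitochondrial gene promoters. Percentages are of genes with a window, namely the 69 members, 8628 of the genes tested and all 27025 genes. The ETS core CCGGAAG, bound by the GA-binding protein, was found in 37.7% of the members, in 21.9% of the genes tested and in 9.93% of all. The YY1 motif AAGATGGC was found in 17.4% of the members, 5.73% of genes tested and 3.19% of all. The palindromic motif of nuclear respiratory factor NRF1 was found in 18.8%, 12.6% and 5.19%. The GC box GGGCGG was found in 49.3%, 70.6% and 38.2%, and the E-box CACGTG, bound by Myc, in 7.25%, 12.0% and 8.09%. The core ACGTG of the hypoxia response element, which every E-box of that spelling also holds, was found in 23.2%, 30.1% and 21.8%. Of the 32 members with a window that rose in replicates 1 and 2, 13 held the ETS core, as did 13 of the 37 that did not pass. A match describes the letters of the window and does not show binding.

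Promoters of 5 members are shown from 200 bases before to 30 bases after the RefSeq start, 5′ to 3′ on the gene's strand. They were chosen for the largest rise (Mrps6), a rise called under all 12 alternatives (Mrpl52), and members whose order of CIH and control was opposite in the kinds of table (Mrps21, Mrpl34 and Mrpl51). Capitals mark the NRF1, ETS, YY1 and GC box motifs named above. The windows are chr16:92058136-92058365 on the plus strand for Mrps6, chr14:54426709-54426938 on the plus strand for Mrpl52, chr3:95871485-95871714 on the minus strand for Mrps21, chr8:71464726-71464955 on the plus strand for Mrpl34 and chr6:125192000-125192229 on the plus strand for Mrpl51 (GRCm38.p6).
Mrps6: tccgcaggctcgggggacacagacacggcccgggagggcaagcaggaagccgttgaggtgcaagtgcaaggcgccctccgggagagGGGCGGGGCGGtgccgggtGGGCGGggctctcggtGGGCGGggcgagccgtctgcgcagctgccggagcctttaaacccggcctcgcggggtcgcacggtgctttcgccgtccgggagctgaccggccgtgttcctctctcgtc
Mrpl52: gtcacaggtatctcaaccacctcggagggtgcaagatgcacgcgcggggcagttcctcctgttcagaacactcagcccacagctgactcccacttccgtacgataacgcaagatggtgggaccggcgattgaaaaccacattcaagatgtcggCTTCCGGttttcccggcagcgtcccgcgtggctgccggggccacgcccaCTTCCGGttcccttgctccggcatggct
Mrps21: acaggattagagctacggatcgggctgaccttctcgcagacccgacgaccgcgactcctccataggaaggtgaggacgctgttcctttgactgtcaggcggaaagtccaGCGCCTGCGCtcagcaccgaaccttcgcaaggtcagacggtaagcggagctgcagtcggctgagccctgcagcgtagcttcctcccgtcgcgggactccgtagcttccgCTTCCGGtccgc
Mrpl34: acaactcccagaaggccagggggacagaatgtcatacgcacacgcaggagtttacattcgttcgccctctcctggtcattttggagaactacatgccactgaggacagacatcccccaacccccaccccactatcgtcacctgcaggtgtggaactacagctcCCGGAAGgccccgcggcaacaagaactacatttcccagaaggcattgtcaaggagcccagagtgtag
Mrpl51: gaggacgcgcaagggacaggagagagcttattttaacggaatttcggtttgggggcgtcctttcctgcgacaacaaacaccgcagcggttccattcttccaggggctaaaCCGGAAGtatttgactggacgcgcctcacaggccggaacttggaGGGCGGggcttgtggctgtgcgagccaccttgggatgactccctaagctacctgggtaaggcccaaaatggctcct
The window of Mrps6 held 4 GC boxes, the first 2 of them overlapping, and no ETS core, while that of Mrpl52 held the ETS core at 2 places. Mrps21 held an NRF1 motif and an ETS core, Mrpl34 an ETS core, and Mrpl51 an ETS core and a GC box.

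Other parts of mitochondrial translation were described from lists by function. For comparison, 18.2% of all genes tested were called higher and 20.9% lower in replicates 1 and 2. Of 5 mitoribosome proteins with other names, Chchd1 and Ptcd3 rose and 3 did not pass (median 0.25). Chchd1 was 47.4 and 41.0 FPKM in CIH 1 and 2 against 25.7 and 29.0 FPKM in control 1 and 2 (1.59-fold, limma adjusted p = 0.00928). All 5 were lower in CIH 3 than in control 3. Among 15 translation factors 5 rose, 0 fell and 10 did not pass (median 0.17). Lrpprc, which stabilises mitochondrial mRNAs, was 41.1 and 39.6 FPKM in CIH 1 and 2 against 25.0 and 23.6 FPKM in control 1 and 2, and 26.7 FPKM in CIH 3 against 39.9 FPKM in control 3 (1.63-fold in replicates 1 and 2, limma adjusted p = 0.00297). Mtrf1l, a release factor, rose 1.59-fold (adjusted p = 0.00576, limma). Tufm, the elongation factor that brings aminoacyl-tRNA to the mitoribosome, was 158 and 150.3 FPKM in CIH 1 and 2 against 105 and 107 FPKM in control 1 and 2, and 35.7 FPKM in CIH 3 against 101 FPKM in control 3.

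Of 25 assembly genes 3 rose, 0 fell and 22 did not pass (median 0.09). Those that rose included the GTPase gene Noa1 (1.38-fold, limma adjusted p = 0.0120) and the pseudouridine synthase gene Rpusd4 (1.33-fold, limma adjusted p = 0.0242). Of 20 genes of mitochondrial aminoacyl-tRNA synthesis 3 rose and 1 fell (median 0.16). Yars2 and Lars2 rose 1.33-fold each (limma adjusted p = 0.0123 and 0.0435). Of 8 genes that transcribe or copy mitochondrial DNA, Polg2 rose, with a log2 change of 0.27 (limma adjusted p = 0.0488), and 7 did not pass. For assembly, aminoacyl-tRNA synthesis and mitochondrial DNA genes, the share called higher did not exceed the 18.2% of all genes tested. Among 7 regulators of mitochondrial genes, 3 rose and 2 fell. Myc, a transcription factor of ribosome synthesis and growth, was 40.03 and 43.3 FPKM in CIH 1 and 2 against 24.0 and 22.8 FPKM in control 1 and 2, and 9.27 FPKM in CIH 3 against 19.9 FPKM in control 3 (1.75-fold in replicates 1 and 2, limma adjusted p = 0.00267). Pprc1, a coactivator, rose 1.39-fold (limma adjusted p = 0.0148). Ppargc1b, another coactivator, fell to 8.43 and 10.6 FPKM in CIH 1 and 2, against 18.6 and 16.2 FPKM in control 1 and 2, and was 3.10 FPKM in CIH 3 against 27.6 FPKM in control 3 (log2 change −0.81 in replicates 1 and 2, limma adjusted p = 0.00982). Gabpa, a subunit of the GA-binding protein, fell with a log2 change of −0.41 (limma adjusted p = 0.0331).

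**Figure D5:**
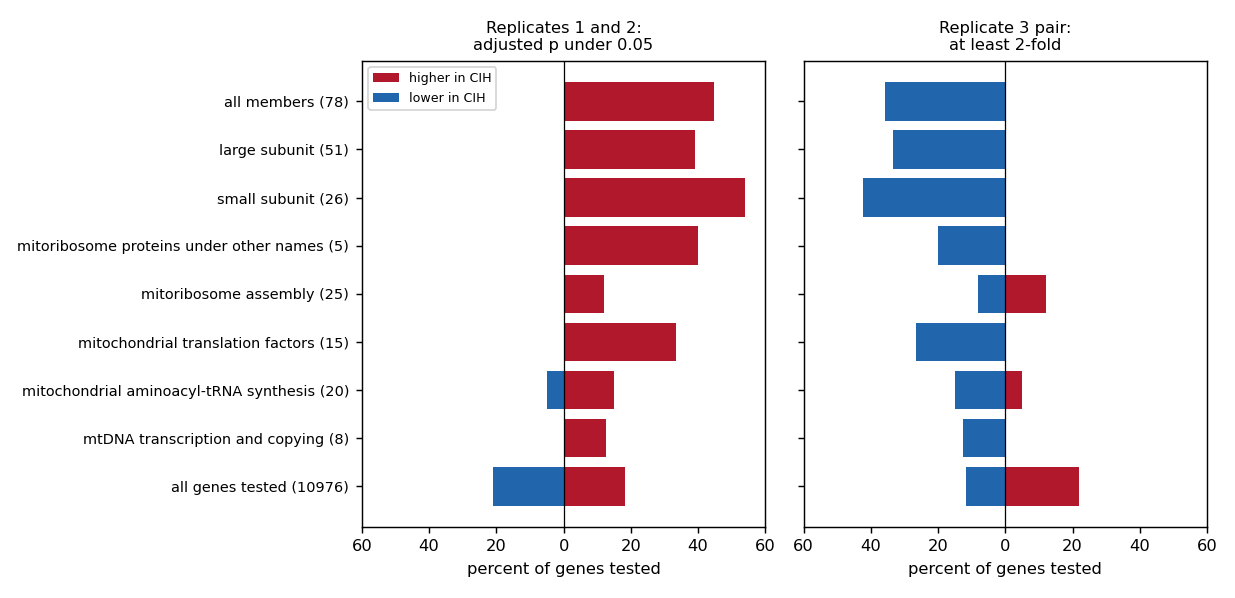
Percent of genes tested that were higher in CIH (to the right) or lower in CIH (to the left) for the members, their subunits, 5 other lists and all genes tested, with the number of genes in brackets. The left panel counts limma calls in replicates 1 and 2 and the right panel changes of at least 2-fold in the replicate 3 pair; the bars of all members stand for 35 of 78 higher on the left and 28 of 78 lower on the right.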

How the data were processed

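The authors deposited FPKM values; the unit was read from the values, since the headers give only library names. Per the submitters' processing notes, GRCm38, featureCounts 1.5.0-p3 and DESeq 1.8.3 were used, without a stated role; no aligner is named there. In the gene tables, FPKM times merged exon length lay within 0.05 of a whole fragment for 98.4% to 98.6% of genes under 50 fragments, which gives the depth. Rows with the same gene ID were summed (1 row for 45 members, up to 10 for the other 33). Of 21769 gene IDs in all files, 21753 had a symbol. Genes averaging 1 FPKM or more across the 6 libraries (10976, all 78 members) were tested as log2(FPKM + 1), on which folds are also given, with limma 3.58.1 (trend, R 4.3.3). The fit was run on simulated data with noise drawn separately for each gene. That check does not cover genes that differ together within a group, as the members did. Figures used Python 3.11.15 and matplotlib 3.10.9. Same-numbered libraries did not deviate together in replicates 1 and 2 (r = −0.18). That is a single value, since with 2 libraries per group both pairs must give the same r. Named genes were the 10 largest called changes each way, the 5 most abundant, the 5 extreme changes each way of the replicate 3 pair, 10 chosen by role and, in other lists, the 2 largest called each way. The members and lists were chosen with earlier results of these data known; Mrpl37, Mrpl33, Mrpl44, Mrpl47, Mrps35, Tufm, Slc5a3 and the neighbour pairs were named after their values were seen. Alternatives were another pseudocount, no filter, scalings, a replicate block, single rows and leaving out each library. The 12 alternatives over which calls are counted leave out single rows, which apply to the replicate 3 pair alone. They include a crossed replicate block that was not planned and was chosen after seeing the data. The result for 1 gene outside the members is not reported here.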

Additional observations from a re-analysis of the deposited data

How the results depend on the processing

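The count of 35 members called higher in replicates 1 and 2 fell to 10 with no filter on low values and ranged from 6 to 34 when 1 library was left out (6 without CIH 1, 23 without control 1). Over all genes, 1129 of 17286 were called higher and 1455 lower with no filter (6.53% and 8.42%, against 12.8% of members higher). Without CIH 1, which leaves 1 CIH library, the share of members called higher was near that of all genes tested. The median log2 change there was 0.26 for the members and −0.01 for all genes tested. The count of members called higher was 32 with a pseudocount of 0.1, 28 after scaling to the same total and 36 after that scaling without mitochondrial-encoded genes. By the median of ratios it was 38, and by the upper quartile 46. The count called lower was 0 in each of these fits. With the replicate number as a block the count was 29. Same-numbered libraries had r = −0.18, so the crossed pairing, chosen after seeing the data, was also run and called 45 higher and 0 lower. The median log2 change in replicates 1 and 2 was 0.22 after scaling to the same total and 0.26 to 0.42 with 1 library left out. In the replicate 3 pair the median was −0.27 after scaling to the same total, −0.72 after that scaling without mitochondrial-encoded genes, −1.31 by the median of ratios and −1.05 by the upper quartile. Members at least 2-fold lower numbered 6, 18, 56 and 42 in that order, and scaling to the same total gave 2 at least 2-fold higher. Relative to all genes tested the median stayed between −1.17 and −1.11 under these 4 scalings. The cause of these differences was not tested.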
